A study of Mus musculus with 4 samples.

Results

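The 5 regions described here are the listed peaks of Trim71 and Cdkn1a in a CLIP experiment on the R783H mutant of the RNA-binding protein Trim71, together with the listed intergenic peaks just downstream of Trim71. They were taken by gene name and by position, from a table of 793 peaks: every peak annotated Trim71 (2 peaks) or Cdkn1a (1 peak), and every intergenic peak on the minus strand of chromosome 9 between 114500000 and 114515000 (2 peaks). All 5 are described, and no filter on low values was applied to them beyond the authors' own selection of peaks. CLIP crosslinks a protein to RNA in living cells, isolates the protein with an antibody and sequences the RNA fragments held by it.

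The cells were mouse embryonic stem cells of the ES-E14TG2a background expressing FLAG-Trim71 (R783H), grown with LIF and inhibitors in 2i medium. CLIP was done with the FLAG-M2 antibody (2 libraries), and total RNA of the same cells served as input (2 libraries). All 4 libraries carry the mutant protein; no library of wild-type Trim71 was analysed here, so the values say how strongly the mutant held these messages and not whether it held them more or less than the wild type. The labels do not say whether the tagged protein is made from its own locus, and therefore not whether its messenger RNA carries the gene's own 3′ UTR. Each peak has a single deposited read density and fold change, and the header names no library. These were read here as values of both CLIP and both input libraries combined, which no source states, and no value below has a replicate error.

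Trim71 is a TRIM-NHL protein, with a TRIM module at its start and an NHL domain at its end that contacts RNA, often in 3′ UTRs. It is made in early embryos and stem cells and is required for closure of the neural tube; its own messenger RNA is a classical target of the microRNA let-7, which silences it as cells differentiate. Cdkn1a encodes p21, an inhibitor of cyclin-dependent kinases that slows entry into S phase, and wild-type Trim71 is known to repress Cdkn1a through its 3′ UTR.

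The mature sequences of 4 let-7 microRNAs are shown because let-7 is the known regulator of the Trim71 3′ UTR and let-7g was itself in the list. They were read from RefSeq (GRCm38.p6), with the seed, bases 2 to 8, in capitals.
mmu-let-7g-5p: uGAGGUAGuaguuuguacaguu
mmu-let-7i-5p: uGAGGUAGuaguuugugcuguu
mmu-let-7a-5p: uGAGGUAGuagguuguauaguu
mmu-let-7c-5p: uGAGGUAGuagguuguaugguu
All 4 share 1 seed. Outside the seed, let-7i and let-7a each differ from let-7g at 2 positions and let-7c at 3.

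Read densities are given in RPM, reads scaled to a common library size, as the authors' deposited table has them. Read numbers were recovered from that table: 1 RPM of CLIP corresponds to 11 reads, and the input was 7.47 times as deep as CLIP. The log2 fold change is the deposited value of CLIP over input at equal depth. Its 95% interval was computed from the recovered reads (Clopper-Pearson) and covers counting error only. PCR copies are not independent molecules. The lowest log2 fold change in the list was 2.04, and the fewest CLIP reads of a listed peak were 34. More weakly held sites of these genes may therefore be missing from the list.

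The messenger RNA of p21 was held at 1 listed site. The Cdkn1a peak lay in the 3′ UTR, on the plus strand at chr17:29099511-29099531 (mm10), 1191 bases before the annotated 3′ end of the gene. It had 147 CLIP reads (13.4 RPM) and 164 input reads (2.00 RPM). Its log2 fold change, as given in the authors' deposited table, was 2.74 (interval 2.41 to 3.07), an enrichment of 6.69-fold (5.32 to 8.42). Its read density was among the higher ones, 59th of 300 peaks in 3′ UTRs, whereas its log2 fold change was 281st.

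The Trim71 message was held at 2 sites in its annotated 3′ UTR, both on the minus strand. The upstream peak, at chr9:114512602-114512652, lay 1334 bases before the annotated 3′ end. It had 142 CLIP reads (12.9 RPM) and 127 input reads (1.55 RPM). The deposited log2 fold change was 3.06 (2.71 to 3.42), or 8.35-fold, 256th of the 300 values in 3′ UTRs.

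The terminal peak, at chr9:114511453-114511490, lay 185 bases before the annotated 3′ end. It had 76 CLIP reads (6.91 RPM) and 73 input reads (0.888 RPM). The deposited log2 fold change was 2.96 (2.48 to 3.44), or 7.78-fold, in 263rd place. The 2 Trim71 sites therefore differed in read density, while their enrichment did not differ beyond counting error: terminal minus upstream was -0.10 on the log2 scale, with an interval of -0.71 to 0.50. Among the 32 genes with 2 or more listed 3′ UTR peaks, 1 had a smaller range between its peaks than Trim71, and the median range was 1.00. Some of these genes had more than 2 peaks, which widens a range. Counting error was not taken into account, so the place of Trim71 is not resolved.

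**Figure D1:**
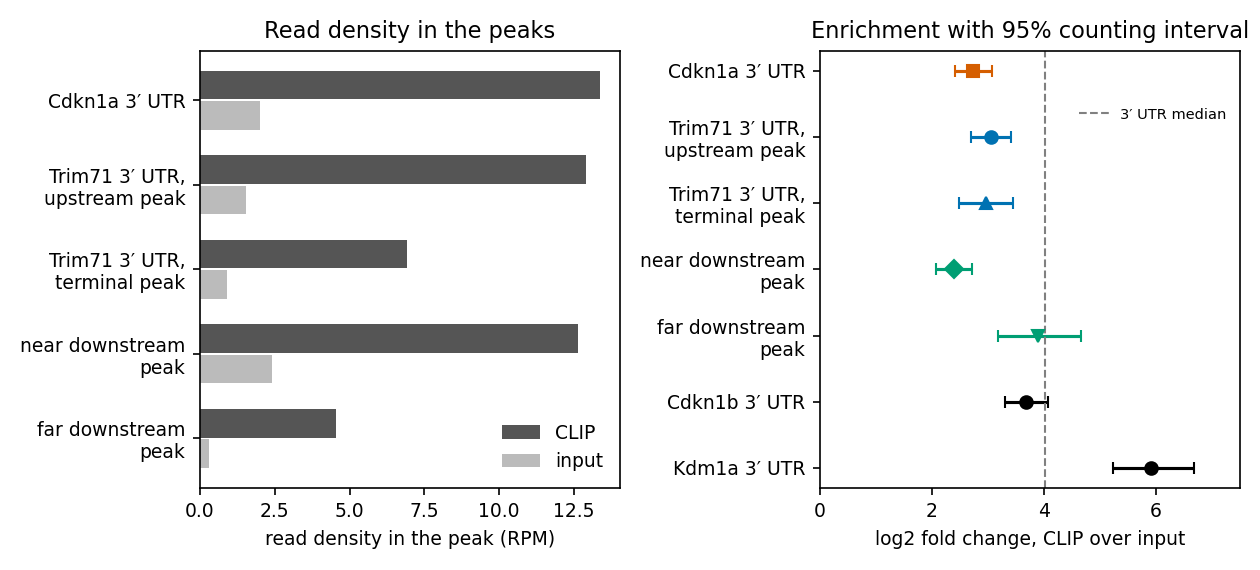
Left, read density (RPM) in each of the 5 peaks for CLIP (dark bars) and input (light bars, from recovered reads), 1 value per peak. Right, log2 fold change of CLIP over input with its 95% counting interval for the same peaks and for the 3′ UTR peaks of Cdkn1b and Kdm1a; the Cdkn1a, Trim71 and near downstream values, 2.39 to 3.06, lie below the median of 3′ UTR peaks (4.01, dashed).

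Beyond the annotated end of Trim71, 2 further peaks followed on the same strand. The near downstream peak, at chr9:114509364-114509402, began 1866 bases past the end. It had 139 CLIP reads (12.6 RPM) and 198 input reads (2.41 RPM), the most input of the 5 regions. The deposited log2 fold change was 2.39 (2.07 to 2.71), or 5.25-fold, lower than in all but 5 of the 300 3′ UTR peaks.

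The far downstream peak, at chr9:114507994-114508023, began 3245 bases past the end. It had 50 CLIP reads (4.55 RPM) and 25 input reads (0.304 RPM), the fewest of the 5 regions on both sides. The deposited log2 fold change was 3.90 (3.18 to 4.66), or 14.9-fold, close to the median of 4.01 in 3′ UTR peaks. It exceeded the near downstream peak by 1.51 (interval 0.71 to 2.33), so the downstream peaks differed from each other by more than counting error.

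No annotated gene of the RefSeq table (GRCm38.p6) covered either downstream peak. The next gene on that side is Ccr4, a chemokine receptor gene also on the minus strand. Its widest annotated span begins 5792 bases past the Trim71 end and 2518 bases past the far peak, and Ccr4 had 0 listed peaks. These 2 peaks were taken for being called intergenic just downstream of Trim71, so their place outside a gene follows in part from that choice. Of the 30 peaks called intergenic by the authors, 27 overlapped a RefSeq gene span of any class (coding, noncoding RNA or pseudogene) on either strand. The remaining 3 overlapped none, namely these 2 and a peak at chr7:130834441-130834468. Among all listed peaks, 6 overlapped no gene span, and 3 of those carry a gene name. The nearest other listed peaks on this strand belonged to Dhx30 and Stt3b, at 4423611 and 741339 bases.

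The 4 peaks at Trim71, outer edge to outer edge, thus spanned 4659 bases. Close neighbours were not rare in the list. Of the 793 peaks, 127 (16.0%) had 3 or more others on their strand starting within 5000 bases on either side. That is a count of peaks and not of runs, over a window wider than the Trim71 span. The downstream peaks held 189 of the 407 CLIP reads of the 4 peaks (46.4%, Clopper-Pearson interval 41.5 to 51.4%) and 223 of the 423 input reads (52.7%, interval 47.8 to 57.6%). Input reads were thus assigned past the annotated end in a number similar to that of the 3′ UTR peaks (223 and 200). Whether these reads come from a longer Trim71 transcript was not tested, because the table holds no reads between the peaks.

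**Figure D2:**
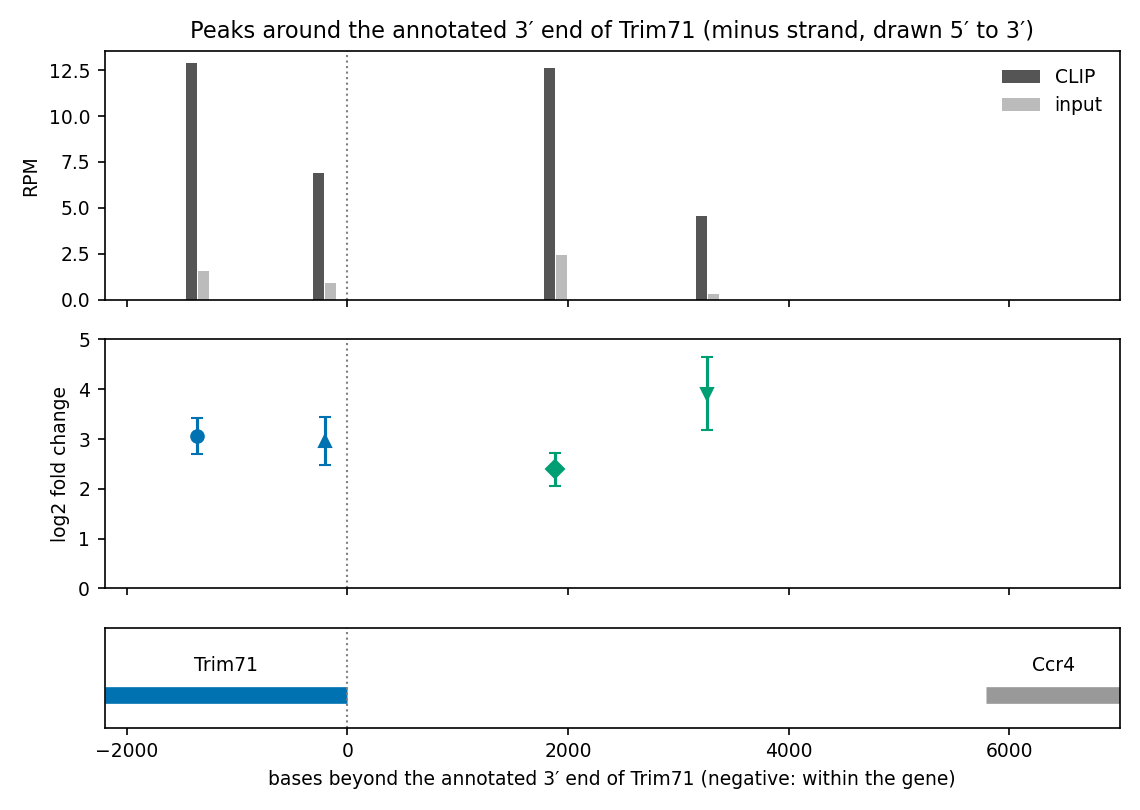
The 4 peaks around the annotated 3′ end of Trim71 (0 on the horizontal axis, in bases, drawn 5′ to 3′): read density of CLIP and input (top, RPM), log2 fold change with its 95% counting interval (middle) and annotated gene spans (bottom). The near downstream peak, 1866 bases past the end, has as much CLIP density as the upstream 3′ UTR peak (12.6 and 12.9 RPM) and more input (2.41 and 1.55 RPM).

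Enrichment was then set side by side between the peaks, as differences of log2 fold change with exact conditional intervals. The upstream Trim71 peak minus Cdkn1a was 0.32, with an interval of -0.17 to 0.81, and the terminal peak minus Cdkn1a was 0.22, with an interval of -0.38 to 0.81. Both intervals include 0, which does not show that the sites were held alike. Summing the reads of the Trim71 intervals, which were called separately and do not stand for the whole 3′ UTR, gave a difference of 0.28 (-0.16 to 0.72). The downstream intervals summed minus the 3′ UTR intervals summed was -0.36 (-0.77 to 0.04). That sum joins unlike peaks: near downstream minus upstream was -0.67 (-1.16 to -0.19), while far downstream minus upstream was 0.84 (0.02 to 1.68), and the difference of medians had the opposite sign (0.14). Relative to Cdkn1a, the near peak differed by -0.35 (-0.82 to 0.11) and the far peak by 1.16 (0.35 to 1.98). Whether any of these differences exceeds the spread between libraries cannot be told from 1 value per peak.

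By the exact binomial test with Benjamini-Hochberg adjustment over the whole table, CLIP exceeded input in 5 of the 5 regions (largest adjusted p = 1.08e-28), as it did in 100% of listed peaks. The interval lay wholly above 4-fold (a log2 fold change of 2) in 5 of 5, against 99.0% of the list. The lowest listed log2 fold change was 2.04, so this mark lies next to the floor of the list. These shares match the background, and the authors had already selected the peaks, so they do not set these regions apart.

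Within the class of 3′ UTR peaks, 93.6% of the others had a higher log2 fold change than the Cdkn1a peak, 85.3% than the upstream Trim71 peak and 87.6% than the terminal one. The same would apply to 98.3% for the near downstream peak and 54.0% for the far one. By place in this order, the direct neighbours of Cdkn1a were Rnmt, the messenger RNA cap methyltransferase (2.78), and Cpox, an enzyme of haem synthesis (2.73). Those of the upstream Trim71 peak were Slc25a5 (3.07) and Tns3 (3.06), and those of the terminal peak were Rtn4 (2.98) and Hsp90aa1, a heat shock chaperone (2.95). The near downstream peak would stand between G3bp1, a stress granule protein (2.40), and Hif1a, the hypoxia-inducible factor (2.35), and the far one between C1d (3.92) and Fubp3 (3.89). The counting intervals of these neighbours overlap those of the members, so their order is not resolved.

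In read density and log2 fold change together, the peaks most like Cdkn1a (Euclidean distance of log2 RPM and log2 fold change, over 3′ UTR peaks) were those of Fgf4, a growth factor of embryonic stem cells (14.6 RPM, 2.63), Dnajc10 (12.3 RPM, 2.92) and the ribosomal protein gene Rps25 (121 CLIP reads, 2.67). Those most like the upstream Trim71 peak were Dnajc10, Thoc3, of the THO complex of messenger RNA export (13.6 RPM, 3.26), and Pfdn2, a prefoldin subunit (13.0 RPM, 3.37).

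**Figure D3:**
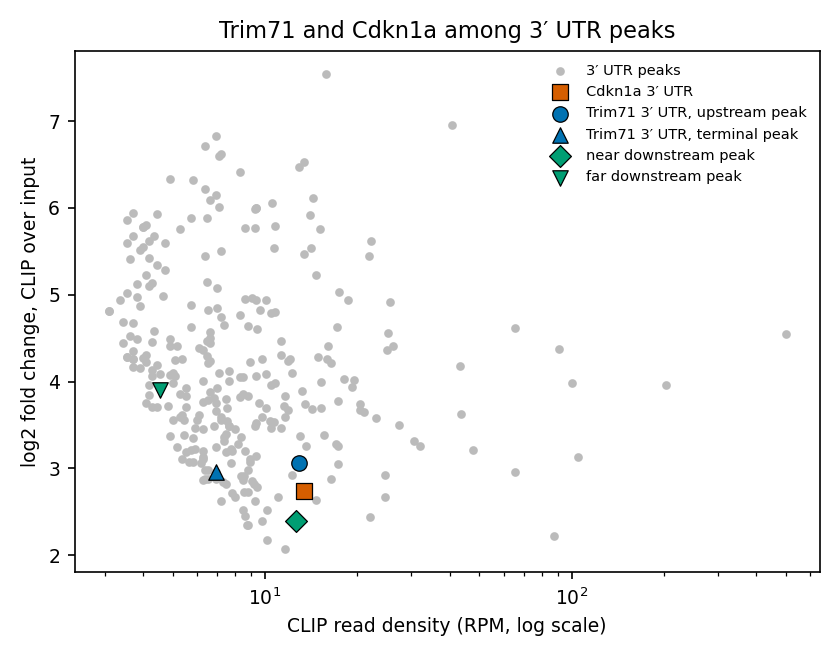
Log2 fold change of CLIP over input against CLIP read density (RPM, log scale) for the 300 3′ UTR peaks (grey) and the 5 regions (coloured). Cdkn1a (13.4 RPM), the upstream Trim71 peak (12.9 RPM) and the near downstream peak (12.6 RPM) share a read density and sit low in the cloud.

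The low places went with high input. The median 3′ UTR peak had 42 input reads, whereas Cdkn1a had 164 (23rd of 300), the upstream Trim71 peak 127 (36th) and the terminal one 73 (80th). Input is the denominator of the fold change, so the measures are tied by construction: over quintiles of input, the median log2 fold change of 3′ UTR peaks went from 5.68 at 5 to 15 reads to 2.97 at 91 to 1763 reads. No listed 3′ UTR peak had fewer than 34 CLIP reads, so one with few input reads is listed only at a high value. Within their own quintile of input, 67.8% of the other peaks stood above Cdkn1a, 45.8% above the upstream Trim71 peak and 88.1% above the terminal one. For the terminal peak this was close to the 87.6% over all 3′ UTR peaks. The near and far downstream peaks had 91.7% and 93.3% of the peaks of their quintile above them. This comparison was chosen after seeing the data, and its part in the low places was not tested.

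Per base of the listed interval, Cdkn1a had 7.0 CLIP and 7.81 input reads, the upstream Trim71 peak 2.78 and 2.49, and the terminal one 2.00 and 1.92. The near downstream peak had 3.56 CLIP and 5.08 input reads per base, and the far one 1.67 and 0.833. The medians of 3′ UTR peaks were 2.71 CLIP and 1.18 input reads per base. The listed interval of Cdkn1a spans 21 bases, against 51 and 38 for the Trim71 peaks. These are densities within called intervals, not levels of the transcripts.

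**Figure D4:**
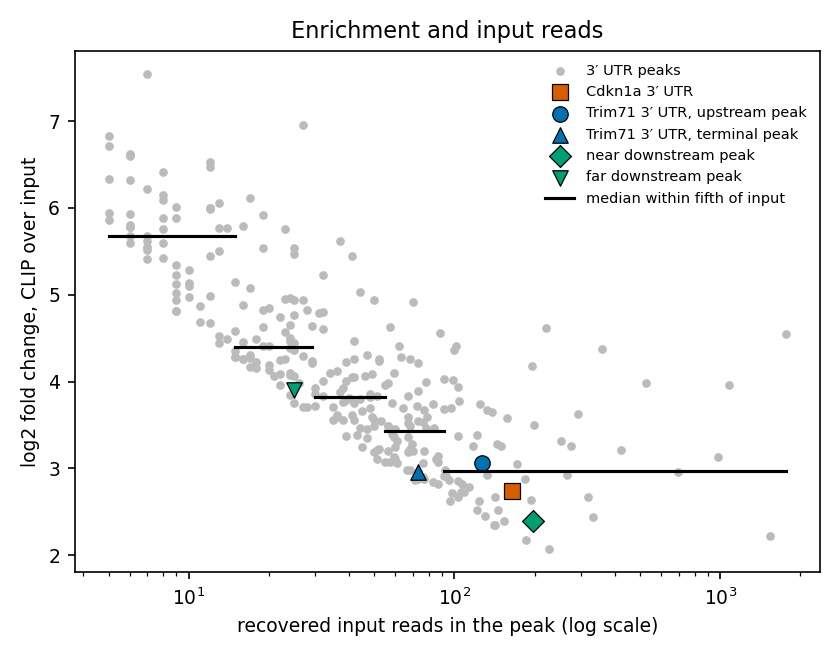
Log2 fold change of CLIP over input against recovered input reads (log scale) for the 300 3′ UTR peaks (grey) and the 5 regions (coloured), with the median of each quintile of input as a black line. The upstream Trim71 peak (3.06) lies near the median of its quintile (2.97), and Cdkn1a (2.74) below it.

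Along the 3′ UTR, the sites were not at a shared distance from the end. Of the 294 other 3′ UTR peaks whose gene could be matched, 178 lay closer to the annotated 3′ end than the Cdkn1a peak, 192 than the upstream Trim71 peak and 63 than the terminal one. The median distance of 3′ UTR peaks was 815 bases. Distances were taken to the end of the gene's annotated span, so a transcript that ends earlier would shorten them.

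Other genes of these pathways were read from lists, beside the 2.24% of protein-coding genes of the RefSeq table (490 of 21900) that had a listed peak. That share includes genes these cells do not express, so a higher share in a list is not read as preference. Trim71 and Cdkn1a were chosen with their peaks known, so their presence in a list is given and not a result. In the p21 pathway, 4 of 28 genes were listed: Cdkn1a; Cdkn1b, which encodes the related inhibitor p27; and the kinases Cdk1 and Cdk4. Cdkn1b had a 3′ UTR peak of similar density to that of Cdkn1a, 14.3 RPM with 157 reads in CLIP and 91 in input, and its log2 fold change was 3.69. It exceeded Cdkn1a by 0.94 (interval 0.43 to 1.46). The 3′ UTR peak of Cdk1, the mitotic kinase, had 7.64 RPM and a log2 fold change of 3.49, which was 0.74 (0.13 to 1.36) above Cdkn1a. Such an excess was common, since 93.6% of the other 3′ UTR peaks had a higher log2 fold change than Cdkn1a. Cdkn1b and Cdk1 stood 190th and 212th of the 300, below the median of 4.01. Cdk4, a G1 kinase, had 2 peaks in its coding sequence with log2 fold changes of 4.49 and 3.42. The other 24 genes, among them Trp53, Rb1 and the D and E cyclins, had no listed peak; how much they were held is not known from a peak list.

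Of 9 genes taken here as known Trim71 targets, 3 were listed: Trim71, Cdkn1a and Kdm1a, which encodes the histone demethylase Lsd1. Whether wild-type Trim71 binds Kdm1a was not checked here. Kdm1a was set against the others because it had the highest log2 fold change of the 3, so its lead follows from that choice. The Kdm1a 3′ UTR peak had nearly the same CLIP reads as Cdkn1a (154 and 147) but 19 against 164 input reads. Its log2 fold change exceeded that of Cdkn1a by 3.18 (2.39 to 4.01) and that of the upstream Trim71 peak by 2.86 (2.06 to 3.71). The other 6 (Ago2, Rbl1, Rbl2, Mbnl1, Egr1 and Esrrb) were not listed. A list of 7 genes with NHL repeats held the TRIM-NHL genes Trim71, Trim2, Trim3 and Trim32, and Nhlrc1, Nhlrc2 and Nhlrc3, which have no TRIM module. Apart from Trim71, which was chosen for its peaks, the other 6 had no listed peak.

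In the let-7 and Lin28 pathway, 5 of 22 genes were listed. This list includes let-7 microRNA genes, Mirlet7g among those listed, which the 2.24% of protein-coding genes does not cover. Mirlet7g had a peak at chr9:106178846-106178867 that covered the 22 bases of the mature let-7g-5p sequence shown above. It had 60 CLIP reads (5.46 RPM) and 41 input reads, with a log2 fold change of 3.45 (2.85 to 4.06). The assignment of such short reads among near-identical family members depends on alignment rules not given in the sources used here. The others included 3′ UTR peaks of the known let-7 targets Mycn (4.94, interval 3.86 to 6.18) and Igf2bp1 (4.97, 3.95 to 6.13). Mycn had 37 CLIP and 9 input reads, and Igf2bp1 42 and 10. Tut7, a uridylyltransferase of let-7 precursors, had a 3′ UTR peak of 54 CLIP and 24 input reads (4.07, 3.35 to 4.83). These peaks lay in the lowest quintile of RPM among 3′ UTR peaks. No log2 fold change in that quintile was below 3.37, so their values are not set against those of Trim71. Dgcr8, a subunit of the microprocessor, had an intronic peak of 77 CLIP and 9 input reads. Lin28a, Lin28b, Dicer1 and the 4 Argonaute genes had no listed peak.

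Among messenger RNA decay factors, which include cofactors of nonsense-mediated decay, 3 of 24 genes were listed. Upf1, the central helicase of nonsense-mediated decay, had a coding-sequence peak with a log2 fold change of 5.17. The CCR4-NOT subunits Cnot1 and Cnot7 had a coding-sequence peak (3.65) and an intronic peak (5.87, with 125 CLIP and 16 input reads). Within the Cnot7 span, on the strand of the intronic peak, lay another peak that the authors call intergenic. Its log2 fold change was lower (3.625, with 109 CLIP and 66 input reads).

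The labelled cell type could not be checked by expression, which the table does not hold, so only the listing of marker genes is given. Of 10 markers of embryonic stem cells 3 had a peak under their name (Sox2, Zfp42 and Dppa5a). The other 7 (Pou5f1, Nanog, Esrrb, Klf4, Tdgf1, Utf1 and Lin28a) had none under their name, nor had 5 fibroblast and 3 neural progenitor markers. A listed peak called intergenic did lie within the span of Nanog (log2 fold change 3.99, described below). With 2.24% of protein-coding genes listed, absence is the common outcome for so few genes. The counts therefore do not identify the cell type. The 3′ UTR peaks of Sox2 and Zfp42 had log2 fold changes of 2.67 and 2.23, in the same low range as Cdkn1a, with 318 and 1534 input reads; an intronic Zfp42 peak with 10 input reads had 4.71.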

How the data were processed

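HITS-CLIP and input libraries of FLAG-Trim71 (R783H) mouse embryonic stem cells (2 each) were represented by 1 peak list; 0 columns of per-sample values were left out. Per the submitters' processing notes, CASAVA 1.4, cutadapt, HISAT2 2.1.0, SAMtools and build mm10 were used; peak caller, thresholds and handling of replicates are not given in the sources used here. Per the file headers, the authors gave RPM and a fold change per peak. The deposited fold change was read as log2: CLIP reads (RPM times 11, 100% whole) divided by 2 to that power and multiplied by a depth ratio of 7.47 gave whole input reads, within 0.1 reads, in 100% of 720 peaks scored, against at most 28.7% for a linear and 24.3% for a natural log reading. The totals correspond to 11000000 CLIP and 82170000 input reads.

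The deposited start was taken as counting from 0, since in 5 of 5 plus-strand peaks on a mature microRNA the microRNA began 1 base above it; in 4 of 4 minus-strand peaks, which test only the end, the microRNA ended at the deposited end. Coordinates are printed counting from 1. Intervals, exact binomial tests (adjusted over 793 peaks) and exact conditional intervals of differences (18 pairs, of which 10 exclude 0) were computed with Python 3.11.15 and scipy 1.17.1 and tested on simulated data. Named genes were all members, their direct neighbours in rank, the 3 genes most like Cdkn1a and the upstream Trim71 peak, Kdm1a, and all listed genes of the pathway lists. Outside this rule, the gene and listed peaks next to Trim71 on its strand (Ccr4, Dhx30, Stt3b), some list members without a listed peak, and Nanog and Lncenc1 were named after the values were seen. The members and lists were chosen with earlier results of these data known. Sequences of the 3′ UTR peaks were not used here.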

Additional observations from a re-analysis of the deposited data

How the results depend on the processing

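No paired analysis was possible because replicate libraries have no values of their own in the peak list, and for the same reason no library could be left out. The log2 fold changes kept their direction with Wilson intervals and with 1 read added to both sides, and Trim71 minus Cdkn1a kept its direction and an interval including 0 with each Trim71 peak alone and with the downstream peaks added (0.10 to 0.32). The difference between downstream and 3′ UTR peaks of Trim71 changed sign, from -0.36 with summed reads to 0.14 with medians, because the sum is weighted by the near peak. A window 5 kb wider gave the same 2 downstream peaks.

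Against all listed peaks and each gene's strongest 3′ UTR peak, the share of peaks with a higher log2 fold change stayed within its interval. That interval treats the peaks compared as random draws and does not cover the counting error of the member's own reads. Within quintiles of RPM the share moved to 76.3% for the upstream and 78.0% for the terminal Trim71 peak, 93.3% for the near and 90.0% for the far downstream peak. Within quintiles of input, it moved to 67.8% for Cdkn1a, 45.8% for the upstream Trim71 peak, 91.7% for the near and 93.3% for the far downstream peak. Depth limits the far peak most, with 25 input reads.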

Other observations

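Some other peaks that the authors' table calls intergenic overlapped genes active in embryonic stem cells; these were chosen after their values were seen, and the strand of the genes was not compared. A peak at chr6:122714508-122714572 lay within the span of Nanog, a transcription factor of pluripotency, with 128 CLIP and 60 input reads (log2 fold change 3.99). A peak at chr13:97496528-97496585 lay within Lncenc1, a long noncoding RNA gene, with 99 CLIP and 57 input reads (log2 fold change 3.70). Both values lie above those of the Trim71 3′ UTR peaks and Cdkn1a, but below the median of all listed peaks (4.20). A place above the members was common, since 89.0% of the other listed peaks exceeded the upstream Trim71 peak. These differences were not tested.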
